A study of Bos taurus with 10 samples.

Results

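The TGF-beta superfamily is a large family of secreted signals that includes the TGF-betas, the activins, myostatin and the bone morphogenetic proteins (BMPs). A ligand brings together type I and type II receptor kinases at the cell surface, which phosphorylate SMAD proteins. These join the common partner SMAD4 and enter the nucleus to change transcription. Antagonists such as follistatin and chordin bind the ligands outside the cell, and inhibitory SMADs, ubiquitin ligases and nuclear repressors damp the signal inside it. In fat, TGF-beta and activin signals are known to hold back the maturation of precursor cells into adipocytes, whereas several BMPs favour commitment to the adipocyte lineage.

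The genes of this pathway were compared between intramuscular fat, the marbling fat between muscle fibres, and subcutaneous fat, the fat under the skin. Both depots came from the same 5 adult female Angus-cross cattle (Bos taurus heifers), and no treatment is named; the submitters asked why marbling fat forms late and slowly. Total RNA of each depot was made into 5 libraries, and libraries with the same number, 1 to 5, were taken as the same animal. The pathway genes were found by symbol: ligands, receptors, SMADs, latent binding proteins, antagonists and inhibitors of the family that the deposited table lists. There were 57 of them among 12674 listed genes, and all 57 passed the filter on low counts that left 12521 genes for testing. A further 23 genes of the family, among them the type I receptor gene TGFBR1 and the ligand gene GDF15, were not analysed here. Of the 57, 4 share a symbol stem but have another function and are described last.

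Totals over the listed genes were 9392739 to 14836808 counts in the intramuscular and 13776094 to 17685678 counts in the subcutaneous libraries. Adipocyte transcripts marked every library: 11 adipocyte markers summed to between 5764 and 19537 CPM (counts scaled to a common library size) in intramuscular fat and between 21593 and 27934 CPM in subcutaneous fat. The intramuscular libraries also held striated muscle transcripts. The 11 muscle markers with values, out of 43 listed, summed to 2079, 630, 1226, 379 and 476 CPM in intramuscular libraries 1 to 5, against 15.2, 13.0, 14.7, 5.70 and 14.1 CPM in subcutaneous libraries 1 to 5. The other 32 were not analysed here. All 11, some listed because they were already known to be high in these samples, were higher in intramuscular fat, and so were 4 of 4 markers of tendon and epimysial fibroblasts with values, 7 of 10 of Schwann cells and nerve (1 was lower) and 3 of 7 of mural cells. Of the endothelial markers 4 of 11 were lower and 0 higher, and of the macrophage, fibro-adipogenic progenitor and adipocyte markers 4 of 10, 4 of 8 and 2 of 11 were lower and 0 higher. In such bulk tissue, fewer cells of a type and less RNA per cell cannot be told apart.

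Of the 57 genes, 10 passed the test as higher in intramuscular fat and 1 as lower (edgeR's quasi-likelihood test, p-values adjusted over all tested genes by Benjamini-Hochberg, threshold 0.05). These are 17.5% and 1.75% of the 57, beside 6.75% higher and 5.49% lower among all tested genes, and 19.3% called in all, beside 12.2%. The median log2 fold change, intramuscular over subcutaneous, was 0.28 for the 57 and -0.04 for all tested genes. The 5 values of each depot did not overlap for 8 genes above and 2 below in intramuscular fat, where the background was 7.85% above and 5.04% below. By role, 5 of 10 TGF-beta, activin and related ligands were higher, and 0 of 7 BMP-type ligands passed the test. Of 9 receptors 1 was higher and 1 lower, and of 8 extracellular antagonists 2 were higher. Of the latent binding proteins 0 of 4 passed, of the signalling SMADs 1 of 6 was higher, and of the intracellular inhibitors 0 of 9 passed. The authors' deposited table called 13 of the 57 higher and 2 lower at the same threshold. These include all 11 called here, and the other 4 are ACVR1, CHRDL1, LTBP1 and SMAD9. The share of all genes called in the deposited table was not computed, and a DESeq2 fit run here called 20% of all tested genes. Without intramuscular replicate 1, without intramuscular replicate 3 or without subcutaneous replicate 3 the number of genes higher was 5, 6 and 6. Without the intramuscular pair with the most muscle transcripts, replicates 1 and 3, it was 4 of the 57 (INHBA, TGFB3, GDF11 and FSTL3), beside 306 higher and 67 lower in the whole table (2.96% called). The part of muscle transcripts in the differences between depots was not tested. The lower call was lost in that fit and without intramuscular replicate 2 or 3 alone.

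**Figure D1:**
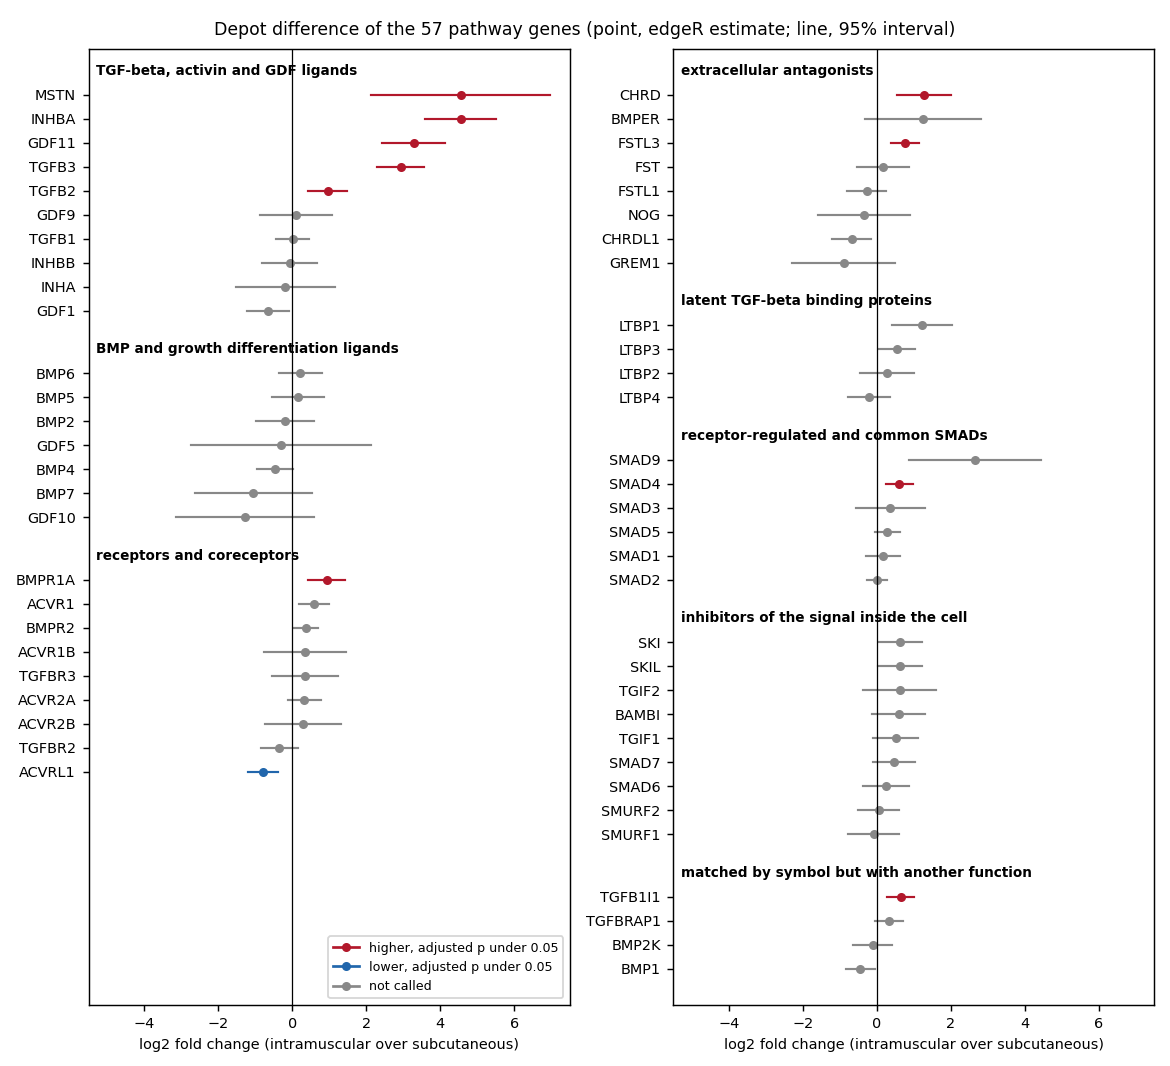
Log2 fold change, intramuscular over subcutaneous fat, of the 57 pathway genes grouped by role, with the 95% interval of the edgeR fit (5 libraries per depot). The ligands MSTN, INHBA, GDF11 and TGFB3 stand furthest to the right, at 4.56, 4.56, 3.28 and 2.93, while all 7 BMP-type ligands have intervals that include 0.

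Among the TGF-beta ligands proper, the depots differed in TGFB3 and TGFB2 and not detectably in TGFB1. TGFB3, a ligand best known from palate and lung development and from mesenchymal tissue (ENSBTAG00000012004, chromosome 10, 87237844 to 87271480 in the coordinates of the deposited table, whose genome build is not named), measured 133, 166, 138, 170 and 146 CPM in intramuscular libraries 1 to 5, against 36.5, 19.5, 19.6, 10.9 and 12.2 CPM in subcutaneous libraries 1 to 5. The lowest intramuscular library lay well above the highest subcutaneous library, and the means stood 7.64-fold apart. Its log2 fold change was 2.93 ± 0.30 (± SE, edgeR adjusted p = 8.69e-05), and it lay between 2.78 and 3.28 in the 10 fits that each left out 1 library, all past the threshold. Across the intramuscular libraries TGFB3 varied 1.28-fold, with its lowest value in replicate 1. The summed muscle markers varied 5.48-fold and were highest in replicate 1; their part in the TGFB3 difference was not tested. The listed gene IFT43 overlaps TGFB3 on the opposite strand and averaged 11.3 CPM in each depot. LTBP3, TGFB1 and BMP2K also overlap a gene on the opposite strand, and whether the counting used strand is not given in the sources used here.

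TGFB2 (chromosome 16, 21808003 to 21900539) measured 31.2, 32.7, 34.7, 20.6 and 24.7 CPM in intramuscular libraries 1 to 5, against 9.04, 22.7, 15.0, 14.5 and 12.7 CPM in subcutaneous libraries 1 to 5. All 5 pairs were higher in intramuscular fat, although subcutaneous replicate 2 exceeded intramuscular replicate 4. For TGFB2 the log2 fold change was 0.96 ± 0.25 (± SE, edgeR adjusted p = 0.025), and 6 of 10 fits with 1 library left out kept it past the threshold. TGFB1, the most widely expressed of the 3 ligands, measured 64.7 ± 14.2 against 64.2 ± 18.3 CPM (intramuscular against subcutaneous, mean ± SD, n = 5 each), a log2 fold change of 0.01 with a 95% interval from -0.44 to 0.47. CCDC97, which overlaps TGFB1, averaged 43.3 CPM in intramuscular and 51.4 CPM in subcutaneous fat and was not called.

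Set side by side per kilobase of gene model (RPKM, CPM divided by gene length in kilobases), the order of the 3 ligands differed between the depots. In intramuscular fat TGFB3 stood at 43.7 ± 4.79 RPKM, TGFB1 at 21.9 ± 4.81 RPKM and TGFB2 at 11.7 ± 2.41 RPKM (SD, n = 5). In subcutaneous fat TGFB1 led at 21.7 ± 6.21 RPKM, and TGFB2 at 6.03 ± 2.04 RPKM and TGFB3 at 5.72 ± 2.96 RPKM did not differ beyond their spread. TGFB3 made up 51.7 to 66.7% of the summed level of the 3 ligands in the intramuscular libraries and 8.71 to 30.7% in the subcutaneous libraries. The ratio of TGFB3 to TGFB1 within a library was 1.98, 1.65, 1.72, 3.04 and 1.98 in intramuscular libraries 1 to 5, against 0.525, 0.266, 0.374, 0.157 and 0.111 in subcutaneous libraries 1 to 5.

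**Figure D2:**
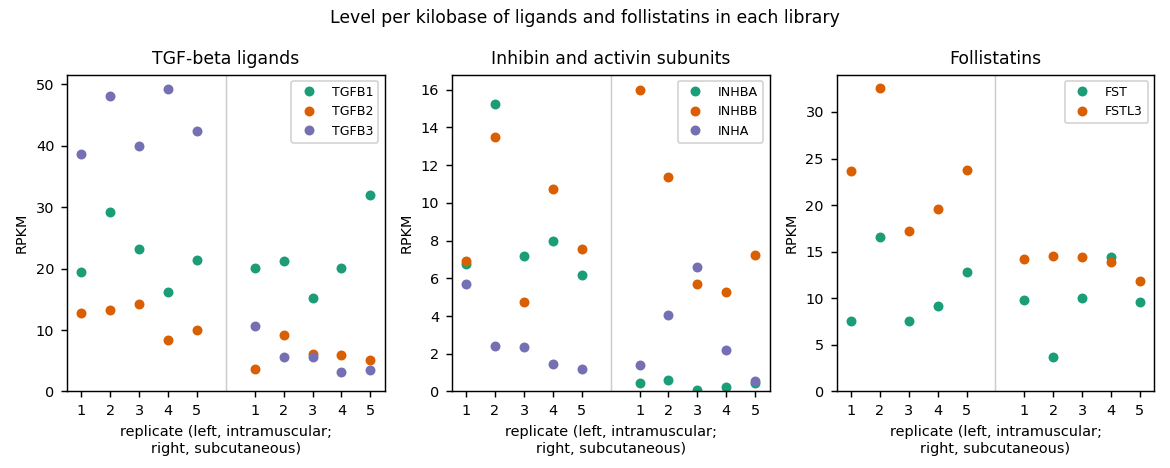
Level per kilobase (RPKM) of the 3 TGF-beta ligands, the inhibin and activin subunits and 2 follistatins in each library, with intramuscular replicates 1 to 5 on the left of each panel and subcutaneous replicates 1 to 5 on the right. TGFB3 lies above TGFB1 in all 5 intramuscular and below it in all 5 subcutaneous libraries, and INHBA lies near INHBB in intramuscular fat but below 1 RPKM in subcutaneous fat.

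Activins are dimers of inhibin beta subunits, and the genes of these subunits parted between the depots. INHBA, which encodes the subunit of activin A (chromosome 4, 79288772 to 79302445), measured 25.7, 58.1, 27.4, 30.5 and 23.5 CPM in intramuscular libraries 1 to 5, against 1.74, 2.42, 0.372, 0.822 and 1.70 CPM in subcutaneous libraries 1 to 5. Every intramuscular library lay far above every subcutaneous one, and intramuscular replicate 2 stood above the other 4. For INHBA the log2 fold change was 4.56 ± 0.45 (± SE, edgeR adjusted p = 7.49e-05), with a range of 4.25 to 4.83 over the 10 fits with 1 library left out. Without replicate 2 the intramuscular mean was 26.8 ± 2.94 CPM (SD, n = 4), against 1.41 ± 0.812 CPM in all 5 subcutaneous libraries. INHBA was highest in intramuscular replicate 2 and the summed muscle markers in replicate 1; their part in the INHBA difference was not tested.

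INHBB, which encodes the subunit of activin B and is known to be made by adipocytes, measured 27.2 ± 10.8 against 28.5 ± 14.2 CPM (intramuscular against subcutaneous, SD, n = 5 each). Its log2 fold change was -0.07, with a 95% interval from -0.81 to 0.68 and an edgeR adjusted p of 0.915. Per kilobase, INHBA stood at 8.65 ± 3.73 RPKM beside INHBB at 8.69 ± 3.44 RPKM in intramuscular fat, and at 0.369 ± 0.212 RPKM beside INHBB at 9.12 ± 4.55 RPKM in subcutaneous fat. The ratio of INHBA to INHBB ranged from 0.743 to 1.51 over the intramuscular libraries and from 0.0172 to 0.0614 over the subcutaneous libraries. INHA, the alpha subunit that turns an activin into an inhibin, was low in both depots, at 3.10 ± 2.13 against 3.51 ± 2.85 CPM.

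GDF11 and MSTN encode a closely related pair of ligands that signal through activin receptors. GDF11 (chromosome 5, 57506100 to 57512983) measured 13.9, 7.56, 11.3, 5.69 and 6.22 CPM in intramuscular libraries 1 to 5, against 1.03, 1.17, 0.683, 1.17 and 0.476 CPM in subcutaneous libraries 1 to 5. The depots did not overlap, and the log2 fold change was 3.28 ± 0.39 (± SE, edgeR adjusted p = 0.000293). The order of GDF11 over the intramuscular libraries, replicates 1, 3, 2, 5 and 4 from high to low, was that of the summed muscle markers; their part in the difference was not tested. Without intramuscular replicates 1 and 3 its log2 fold change was 2.83 (adjusted p = 0.00549). Those libraries held its highest values, so leaving them out lowers the fold change whatever their cause.

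MSTN, myostatin, the restrainer of muscle growth made chiefly by muscle fibres (chromosome 2, 6278630 to 6285486), was the lowest of the 57 genes at a mean of 0.302 RPKM. It had 57, 9, 15, 11 and 13 counts in intramuscular replicates 1 to 5, and in subcutaneous fat it had 5 counts in replicate 1 and 0 in the other 4. These were 5.34, 0.661, 1.10, 0.746 and 0.879 CPM in intramuscular fat and 0.323 CPM in subcutaneous replicate 1. The values did not overlap, and replicate 1, the highest in each depot, stood far above the others of its depot. For MSTN the log2 fold change was 4.56 ± 1.12 (± SE, edgeR adjusted p = 0.0212), a value that rests on 5 subcutaneous counts in 1 library. The authors' deposited value was 4.78. Without subcutaneous replicate 1 it was 7.63, a size set by edgeR's small prior count because all remaining subcutaneous counts are 0. It was 3.55 with an adjusted p of 0.0613 without intramuscular replicate 1, in which the muscle markers were also highest. The intramuscular mean was 1.74 CPM with that library and 0.845 CPM without it.

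The remaining ligands of this branch were not called. GDF1 (chromosome 7, 4333080 to 4334822) had the highest level per kilobase of the non-BMP ligands over all libraries, at 29.2 RPKM. It measured 35.8, 25.8, 20.7, 25.5 and 20.3 CPM in intramuscular libraries 1 to 5, against 45.4, 25.9, 34.6, 28.8 and 66.3 CPM in subcutaneous libraries 1 to 5. It was lower in intramuscular fat in 5 of 5 pairs, but with a log2 fold change of -0.65 ± 0.26 (± SE) the edgeR adjusted p was 0.116. GDF9, a ligand of the oocyte, was low at 1.36 ± 0.360 against 1.27 ± 0.470 CPM.

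The BMP-type ligands did not pass the test in either direction (0 of 7 by edgeR, DESeq2 or limma voom at an adjusted p under 0.05, and 0 of 7 by edgeR at an unadjusted p under 0.05). BMP4, which commits precursor cells to the adipocyte lineage, had the highest level per kilobase among them. It measured 31.0, 37.2, 39.5, 40.2 and 37.6 CPM in intramuscular libraries 1 to 5, against 46.8, 39.0, 32.2, 79.5 and 60.4 CPM in subcutaneous libraries 1 to 5. The subcutaneous values spread from within the narrow intramuscular range to well above it, and the log2 fold change of -0.47 had a 95% interval from -0.96 to 0.01. BMP2 measured 40.4 ± 15.0 against 46.2 ± 28.4 CPM, BMP6 22.2 ± 5.13 against 19.0 ± 7.39 CPM and BMP5 24.1 ± 8.90 against 21.5 ± 8.95 CPM (intramuscular against subcutaneous, SD, n = 5 each). BMP7, known for its part in brown fat formation, measured 4.75 ± 1.97 against 9.84 ± 11.4 CPM. Its subcutaneous mean was 5.12 CPM without replicate 1, the library at 28.7 CPM. GDF10 was lower in intramuscular fat in 5 of 5 pairs at 1.65 ± 1.88 against 4.05 ± 3.25 CPM, and GDF5 measured 0.760 ± 0.702 against 0.958 ± 0.978 CPM.

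**Figure D3:**
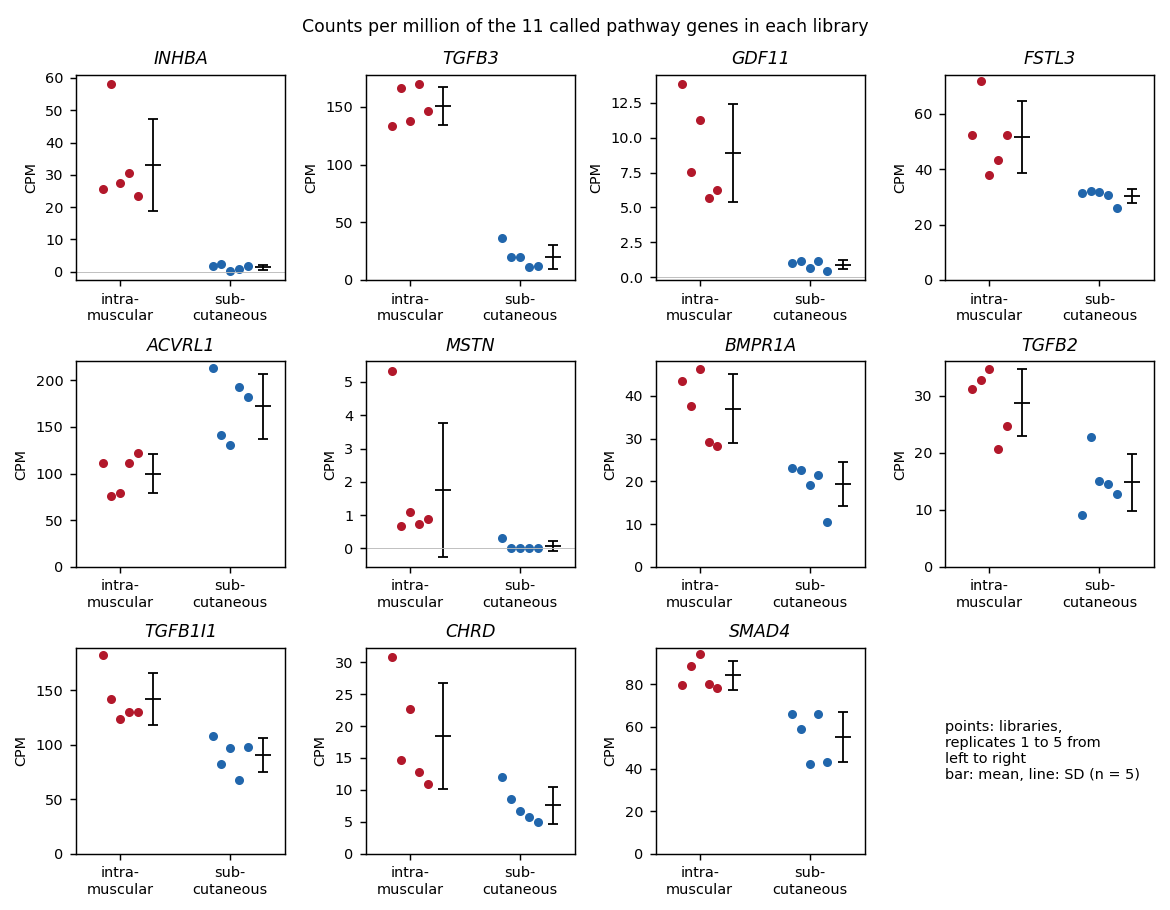
CPM of the 11 called pathway genes in each of the 10 libraries, intramuscular left of subcutaneous, replicates 1 to 5 from left to right within a depot, with the mean and SD beside them (n = 5). The depots do not overlap for 9 of the 11 genes, and TGFB2 and CHRD overlap. Intramuscular replicate 2 stands apart for INHBA and intramuscular replicate 1 for MSTN.

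Among the receptors, the BMP type I receptor BMPR1A was higher and the endothelial type I receptor ACVRL1 lower in intramuscular fat. BMPR1A (chromosome 28, 41486119 to 41544234) measured 43.4, 37.7, 46.3, 29.3 and 28.2 CPM in intramuscular libraries 1 to 5, against 23.2, 22.6, 19.1, 21.6 and 10.4 CPM in subcutaneous libraries 1 to 5. The depots did not overlap, although intramuscular replicates 4 and 5 came within a few CPM of the highest subcutaneous library. Its log2 fold change was 0.93 ± 0.23 (± SE, edgeR adjusted p = 0.0233), and 7 of 10 fits with 1 library left out kept the call. The highest 2 intramuscular values were in replicates 3 and 1, which also held the most muscle transcripts, and without both the log2 fold change was 0.72 (adjusted p = 0.173). Leaving out the highest values lowers a fold change whatever their cause. The smaller fit also called 2.96% of all tested genes, beside 12.2% with all libraries. The part of muscle transcripts in the BMPR1A difference was not tested.

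ACVRL1, also called ALK1, binds BMP ligands of the circulation on vessel-lining cells (chromosome 5, 27943530 to 27957768). It was the highest of the 9 receptors per kilobase and measured 111, 75.7, 79.4, 111 and 122 CPM in intramuscular libraries 1 to 5, against 213, 141, 131, 193 and 182 CPM in subcutaneous libraries 1 to 5. All intramuscular values lay below all subcutaneous values, and the log2 fold change was -0.79 ± 0.19 (± SE, edgeR adjusted p = 0.0204). Without intramuscular replicate 2 or 3 the call was lost, with an adjusted p of up to 0.0602. Its coreceptor endoglin (ENG) measured 353 ± 62.7 against 515 ± 124 CPM and was not called. The ratio of ACVRL1 to ENG per kilobase was 0.263 ± 0.0600 against 0.313 ± 0.0632 (SD, n = 5). The 11 endothelial markers together summed to 2204 ± 254 against 3612 ± 797 CPM; their part in the ACVRL1 difference was not tested.

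ACVR1, a type I receptor for BMPs and activins, was close to the threshold. It measured 51.8, 46.7, 54.5, 33.2 and 45.3 CPM in intramuscular libraries 1 to 5, against 41.9, 30.4, 26.6, 29.7 and 25.9 CPM in subcutaneous libraries 1 to 5. It was higher in 5 of 5 pairs, the 2 depots overlapped, and its log2 fold change of 0.58 ± 0.18 (± SE) had an edgeR adjusted p of 0.0557. With the animal as a replicate block the adjusted p was 0.0499, and without subcutaneous replicate 1 it was 0.0202. Of the 10 edgeR fits with 1 library left out, 2 passed the threshold for ACVR1, and the highest adjusted p was 0.137. TGFBR2, the type II receptor for TGF-beta, measured 179 ± 5.34 against 227 ± 84.2 CPM. Its intramuscular values were nearly level, and its subcutaneous values ran from 122 to 332 CPM. BMPR2 measured 89.7 ± 14.3 against 69.0 ± 7.19 CPM and was higher in 5 of 5 pairs, but the depots overlapped. ACVR2A and the TGF-beta coreceptor TGFBR3 measured 20.9 ± 3.25 against 16.7 ± 4.37 CPM and 47.1 ± 13.0 against 37.0 ± 24.0 CPM. ACVR1B and ACVR2B, receptors for activins, were low, at 4.98 ± 1.90 against 3.90 ± 3.31 CPM and 1.95 ± 0.814 against 1.60 ± 0.670 CPM.

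The extracellular antagonists split by gene. FSTL3, a follistatin-like protein that binds activins and myostatin (chromosome 7, 43279471 to 43285849), measured 52.3, 71.9, 38.1, 43.2 and 52.5 CPM in intramuscular libraries 1 to 5, against 31.4, 32.2, 31.8, 30.7 and 26.1 CPM in subcutaneous libraries 1 to 5. The subcutaneous libraries lay close together, and each intramuscular library was above them. For FSTL3 the log2 fold change of 0.76 ± 0.18 (± SE) had an edgeR adjusted p of 0.0175 and stayed past the threshold in all 10 fits with 1 library left out. INHBA and FSTL3 were both highest in intramuscular replicate 2. Follistatin itself (FST) measured 28.1 ± 10.2 against 25.0 ± 10.0 CPM, and the depots overlapped. Per kilobase, the ratio of INHBA to FST plus FSTL3 was 0.252 ± 0.0586 against 0.0172 ± 0.0121 (intramuscular against subcutaneous, SD, n = 5). When INHBB was added to INHBA the ratio was 0.506 ± 0.112 against 0.426 ± 0.232, and the depots overlapped.

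CHRD, chordin, traps BMPs away from their receptors (chromosome 1, 82803353 to 82813103). It measured 30.9, 14.8, 22.7, 12.7 and 10.9 CPM in intramuscular libraries 1 to 5, against 12.1, 8.50, 6.64, 5.70 and 4.90 CPM in subcutaneous libraries 1 to 5. It was higher in all 5 pairs, while subcutaneous replicate 1 exceeded intramuscular replicate 5. For CHRD the log2 fold change was 1.28 ± 0.34 (± SE, edgeR adjusted p = 0.0276), and 5 of 10 fits with 1 library left out kept the call. The highest CHRD values were in intramuscular replicates 1 and 3, beside the highest sums of muscle markers, and without both libraries the log2 fold change was 0.77 (adjusted p = 0.226). As for BMPR1A, leaving out the highest values lowers the fold change whatever their cause, and that fit called 2.96% of all tested genes. The part of muscle transcripts in the CHRD difference was not tested.

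CHRDL1, a chordin-like BMP antagonist, was far more abundant than CHRD and leaned the other way (chromosome X, 59037880 to 59172293). It measured 163, 398, 351, 439 and 438 CPM in intramuscular libraries 1 to 5, against 564, 663, 571, 601 and 471 CPM in subcutaneous libraries 1 to 5. All intramuscular values lay below all subcutaneous values, with replicate 1 lowest. The 11 adipocyte markers summed to 5764, 14172, 12750, 18550 and 19537 CPM in intramuscular libraries 1 to 5, and to between 21593 and 27934 CPM in subcutaneous fat. Their part in the CHRDL1 difference was not tested. For CHRDL1 the log2 fold change of -0.68 ± 0.24 (± SE) had an edgeR adjusted p of 0.0806, and in the authors' deposited table it was -0.67 with an adjusted p of 0.0356. The ratio of CHRDL1 to CHRD per kilobase ranged from 4.37 to 33.1 over the intramuscular libraries and from 38.7 to 87.4 over the subcutaneous libraries.

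BMPER, an extracellular regulator that binds BMPs, rested on 1 library. It measured 14.3, 11.5, 10.0, 16.7 and 8.51 CPM in intramuscular libraries 1 to 5, against 1.16, 2.35, 1.18, 19.5 and 1.36 CPM in subcutaneous libraries 1 to 5. Subcutaneous replicate 4 was the highest of all 10 libraries, while the other 4 subcutaneous libraries lay below every intramuscular one. With all libraries the log2 fold change was 1.25 ± 0.72 (± SE, edgeR adjusted p = 0.258). Without subcutaneous replicate 4 it was 3.01 (adjusted p = 0.000681), and with the animal as a replicate block 2.28 (adjusted p = 0.0242). The same library was the highest for the BMP antagonist NOG, noggin, at 7.11 CPM beside 1.06 to 1.61 CPM in the other subcutaneous libraries.

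FSTL1, a secreted glycoprotein of the follistatin family made by fibroblasts and preadipocytes, was the most abundant of the 57 genes at 188 RPKM. It measured 555, 815, 649, 560 and 552 CPM in intramuscular libraries 1 to 5, against 1207, 803, 560, 719 and 516 CPM in subcutaneous libraries 1 to 5. The depots overlapped, and the log2 fold change of -0.28 had a 95% interval from -0.80 to 0.23. GREM1, a BMP antagonist of stromal cells, was low at 1.84 ± 1.33 against 3.44 ± 2.60 CPM.

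Latent TGF-beta binding proteins tether the inactive ligand to the matrix, and 0 of the 4 genes passed the edgeR test, with 2 at an unadjusted p under 0.05 and 1, LTBP1, called by DESeq2 and by limma voom. LTBP4 was the most abundant, at 677, 912, 669, 640 and 864 CPM in intramuscular libraries 1 to 5, against 1522, 941, 641, 617 and 645 CPM in subcutaneous libraries 1 to 5. The 2 depots overlapped, and its log2 fold change was -0.21 with all libraries and 0.08 without subcutaneous replicate 1. LTBP1 (chromosome 11, 15473232 to 15930122) measured 181, 123, 164, 173 and 147 CPM in intramuscular libraries 1 to 5, against 162, 46.6, 36.3, 57.4 and 35.7 CPM in subcutaneous libraries 1 to 5. It was higher in intramuscular fat in 5 of 5 pairs, and subcutaneous replicate 1 alone reached the intramuscular range. For LTBP1 the log2 fold change was 1.22 ± 0.38 (± SE, edgeR adjusted p = 0.051), just outside the threshold. Without subcutaneous replicate 1 it was 1.84 (adjusted p = 0.00021), and with the replicate block 1.48 (adjusted p = 0.00997). Of the 10 edgeR fits with 1 library left out, only 1 passed the threshold for LTBP1, and the highest adjusted p was 0.107. LTBP3, best known from bone, measured 210 ± 34.6 against 143 ± 43.2 CPM and LTBP2 47.6 ± 14.6 against 39.5 ± 21.1 CPM.

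Of the SMADs that carry the signal, SMAD4 passed the test. SMAD4, the partner shared by the TGF-beta and BMP branches (chromosome 24, 50524995 to 50577277), measured 79.8, 88.6, 94.4, 80.0 and 78.3 CPM in intramuscular libraries 1 to 5, against 66.1, 58.8, 42.2, 65.9 and 43.3 CPM in subcutaneous libraries 1 to 5. The depots did not overlap, and the intramuscular values varied 1.20-fold. The log2 fold change was 0.61 ± 0.17 (± SE, edgeR adjusted p = 0.0321), and 4 of 10 fits with 1 library left out kept the call. SMAD2, of the TGF-beta branch, was level in every library, at 51.3, 46.8, 56.9, 55.6 and 54.5 CPM in intramuscular libraries 1 to 5, against 51.7, 51.4, 53.4, 57.6 and 51.6 CPM in subcutaneous libraries 1 to 5. Its log2 fold change was -0.00 with a 95% interval from -0.27 to 0.27, its sign varied with the scaling used, and it had the highest level per kilobase of the 6.

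The BMP-branch SMADs SMAD1 and SMAD5 measured 69.8 ± 11.3 against 62.2 ± 18.8 CPM and 37.3 ± 3.57 against 30.6 ± 4.99 CPM, and SMAD3 of the TGF-beta branch 7.96 ± 1.23 against 6.19 ± 3.88 CPM. SMAD9, a further BMP-branch SMAD, was low. It measured 3.37, 3.96, 4.75, 2.91 and 1.49 CPM in intramuscular libraries 1 to 5, against 0.194, 1.91, 0.372, 0.176 and 0 CPM in subcutaneous libraries 1 to 5. Subcutaneous replicate 2 alone reached the intramuscular range. The log2 fold change was 2.64 ± 0.83 (± SE, edgeR adjusted p = 0.0533), 4.07 without subcutaneous replicate 2 (adjusted p = 0.00686) and 3.41 with the replicate block (adjusted p = 0.0195). Of the 10 edgeR fits with 1 library left out, only 1 passed the threshold for SMAD9, and the highest adjusted p was 0.119.

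Of the 9 inhibitors of the signal inside the cell 0 passed with edgeR, DESeq2 or limma voom, and 2 had an unadjusted edgeR p under 0.05. The log2 fold change was positive for 8 of the 9, beside 38 of the 57 pathway genes and 5893 of the 12521 tested genes. It ranged from -0.09 to 0.63 over the 9 inhibitors, with a median of 0.51. SKI, a nuclear repressor of SMADs, had the highest level per kilobase. It measured 158, 153, 155, 120 and 127 CPM in intramuscular libraries 1 to 5, against 142, 110, 43.7, 104 and 60.2 CPM in subcutaneous libraries 1 to 5. It was higher in 5 of 5 pairs and the depots overlapped, with a log2 fold change of 0.63 ± 0.27 (± SE, edgeR adjusted p = 0.133, and 0.0464 without subcutaneous replicate 1). SKI passed the threshold in only 1 of the 10 edgeR fits with 1 library left out, and the highest adjusted p was 0.241. Its relative SKIL measured 13.5 ± 4.53 against 8.74 ± 2.20 CPM and the repressors TGIF1 and TGIF2 17.7 ± 6.26 against 12.5 ± 3.83 CPM and 6.07 ± 1.80 against 3.96 ± 2.35 CPM. The inhibitory SMADs, SMAD6 of the BMP branch and SMAD7 of both, measured 26.2 ± 6.45 against 22.1 ± 10.0 CPM and 50.9 ± 19.7 against 37.0 ± 4.35 CPM. The ubiquitin ligases SMURF1 and SMURF2 measured 17.8 ± 3.44 against 18.9 ± 8.99 CPM and 13.7 ± 1.43 against 13.3 ± 4.17 CPM, and the decoy receptor BAMBI 6.00 ± 0.588 against 4.00 ± 1.61 CPM.

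Of the 4 genes that share a symbol stem but have another function, TGFB1I1 passed the test. TGFB1I1 encodes a focal adhesion protein of smooth muscle and myofibroblasts that TGF-beta induces (chromosome 25, 27503118 to 27510659). It measured 183, 142, 124, 130 and 130 CPM in intramuscular libraries 1 to 5, against 108, 82.5, 96.6, 67.6 and 97.9 CPM in subcutaneous libraries 1 to 5, without overlap. The log2 fold change was 0.65 ± 0.17 (± SE, edgeR adjusted p = 0.0268), and 7 of 10 fits with 1 library left out kept the call. It was lost without intramuscular replicate 1, the library with the highest TGFB1I1 value and the most muscle transcripts. Leaving out intramuscular replicate 2, subcutaneous replicate 2, or intramuscular replicates 1 and 3 together also lost it. The part of muscle transcripts was not tested. BMP1 is a procollagen protease that also cleaves chordin. It measured 90.9 ± 12.0 against 124 ± 29.7 CPM and was lower in intramuscular fat in 5 of 5 pairs, but the depots overlapped. TGFBRAP1, a receptor-associated protein, and the kinase BMP2K measured 37.5 ± 3.91 against 30.1 ± 5.97 CPM and 30.0 ± 6.06 against 32.6 ± 11.1 CPM.

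**Figure D4:**
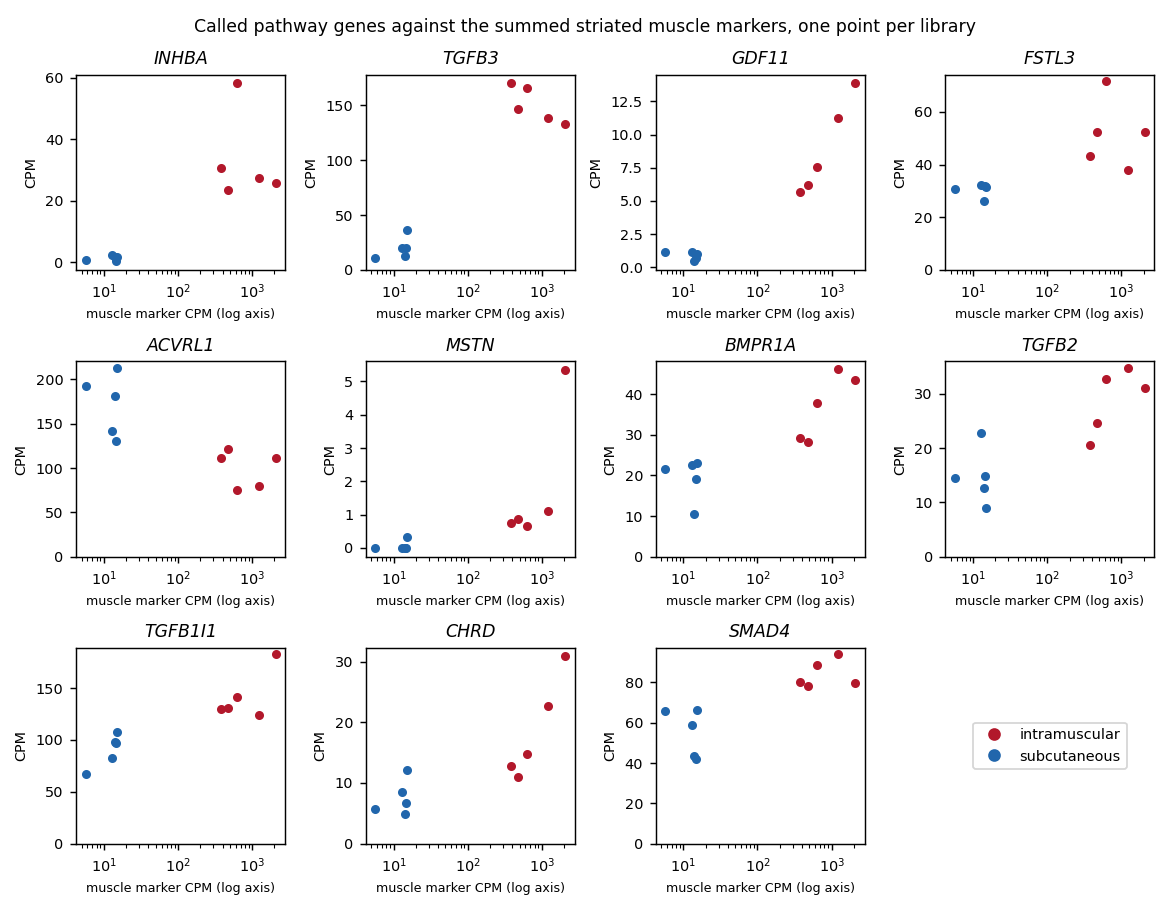
CPM of the 11 called pathway genes against the summed CPM of 11 striated muscle markers (log axis), one point per library, with intramuscular libraries in red and subcutaneous libraries in blue. Within the intramuscular libraries GDF11, CHRD, MSTN and TGFB1I1 are highest where the muscle markers are highest, at 13.9, 30.9, 5.34 and 183 CPM in replicate 1. TGFB3 is lowest there at 133 CPM.

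Further genes of the pathway were taken in 5 lists. Of genes known to respond to TGF-beta, 2 of 22 were higher and 1 lower (13.6% called, beside 12.2% of all tested genes), with a median log2 fold change of -0.14. THBS1, thrombospondin, which activates latent TGF-beta, measured 463 ± 177 against 117 ± 72.6 CPM, and KLF10, an early TGF-beta-induced transcription factor, 173 ± 61.2 against 65.7 ± 13.4 CPM. SPHK1, a sphingosine kinase, fell to 26.4 ± 6.16 CPM in intramuscular fat, against 78.1 ± 26.1 CPM in subcutaneous fat. On the log2 scale the differences of THBS1, KLF10 and SPHK1 were 1.99, 1.40 and -1.56, with edgeR adjusted p of 0.0114, 0.00500 and 0.00142. The fibrillar collagen genes COL1A1 and COL3A1, classical TGF-beta targets, did not pass the test, at 2694 ± 482 against 4652 ± 2207 CPM and 5664 ± 584 against 7187 ± 1710 CPM.

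In the list of BMP response genes 2 of 16 were higher and 0 lower by edgeR (12.5% called), with a median of -0.10. DESeq2 called 2 higher and 1 lower in this list, and 20% of all tested genes. ID4, an inhibitor of helix-loop-helix factors, measured 71.0 ± 4.24 against 30.8 ± 16.3 CPM, and PPARGC1A, the mitochondrial coactivator, 6.96 ± 1.68 against 3.26 ± 1.17 CPM. On the log2 scale the difference was 1.21 for ID4 and 1.09 for PPARGC1A (edgeR adjusted p = 0.0162 and 0.0498), and PPARGC1A kept its call in 1 of 10 fits with 1 library left out. The canonical BMP targets ID1, ID2 and ID3 did not pass, at 66.9 ± 18.0 against 127 ± 59.7 CPM, 71.5 ± 21.6 against 87.1 ± 20.9 CPM and 92.9 ± 7.37 against 89.8 ± 39.8 CPM.

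Among other extracellular regulators 7 of 31 were higher and 0 lower by edgeR (22.6% called), with a median of -0.01. DESeq2 called 8 higher and 4 lower in this list, and 20% of all tested genes. Asporin (ASPN), a matrix protein that binds TGF-beta, measured 140 ± 38.3 against 30.8 ± 12.6 CPM, and the TGF-beta coreceptor CD109 41.4 ± 6.60 against 17.3 ± 4.43 CPM. ITGB6, the integrin subunit that releases latent TGF-beta in epithelia, measured 24.4, 3.96, 12.4, 1.97 and 3.51 CPM in intramuscular replicates 1 to 5. In subcutaneous fat it had 6 counts in replicate 4 and 0 in the other 4, and its intramuscular order was that of the muscle markers, whose part in the difference was not tested. The log2 fold changes of ASPN, CD109 and ITGB6 were 2.18, 1.26 and 6.77, with edgeR adjusted p of 0.000529, 0.00239 and 0.00185. The integrin subunits ITGB3 and ITGB1, the elastic fibre protein EMILIN1 and biglycan (BGN) were also higher, by 1.18, 0.67, 0.90 and 0.70 on the log2 scale.

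Among other intracellular regulators 3 of 27 were higher and 1 lower (14.8% called). The ubiquitin ligase NEDD4L measured 40.0 ± 15.7 against 17.5 ± 4.82 CPM, the SMAD phosphatase PPM1A 116 ± 31.0 against 69.2 ± 13.9 CPM and the adaptor ERBIN 81.1 ± 13.4 against 56.5 ± 5.41 CPM. TAB1, an adaptor of the kinase MAP3K7, measured 43.0 ± 3.44 against 58.1 ± 4.74 CPM (edgeR adjusted p = 0.0481). The TAB1 call was lost with the animal as a replicate block (adjusted p = 0.0561), with RLE scaling (0.0554) and with upper quartile scaling (0.0538), and it held in 1 of 10 fits with 1 library left out. Of 21 nuclear partners of SMADs 2 were higher and 0 lower (9.52% called): SP1 at 31.5 ± 4.78 against 17.5 ± 5.01 CPM and ZEB1 at 75.4 ± 24.0 against 36.1 ± 13.4 CPM. Over the 5 lists, 16 genes were higher and 2 lower of 117 tested (15.4% called), and without intramuscular replicates 1 and 3 these counts were 5 and 1. The higher count was 9, 8 and 10 without intramuscular replicate 2, intramuscular replicate 3 or subcutaneous replicate 3. In the whole table the higher count was 845 with all libraries and 617, 494 and 602 in those fits. Without intramuscular replicates 1 and 3 the whole table had 306 genes higher.

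**Figure D5:**
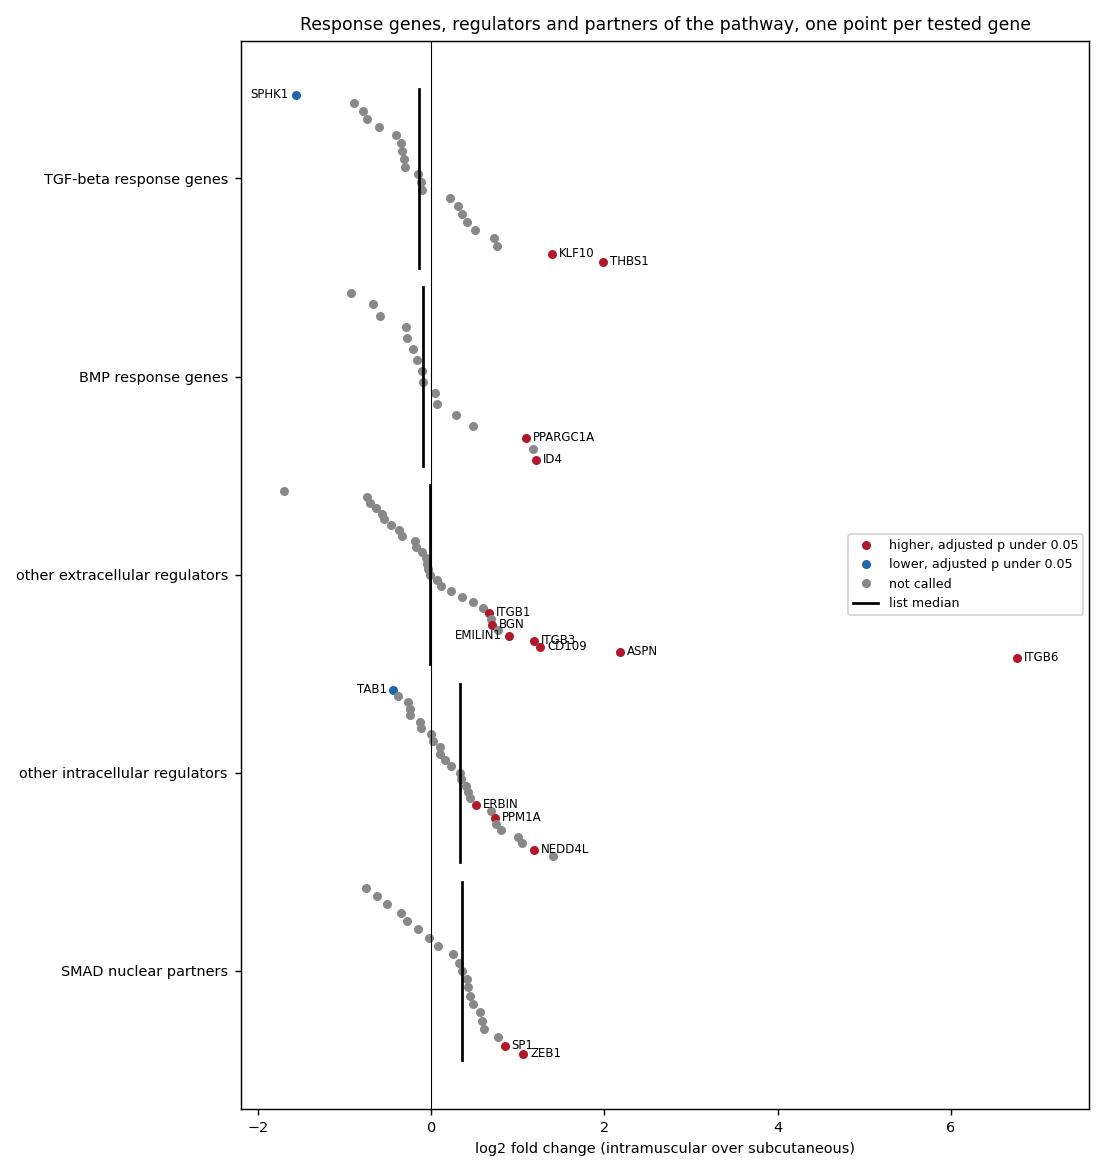
Log2 fold change, intramuscular over subcutaneous fat, of every tested gene in 5 lists of response genes, regulators and partners of the pathway, with called genes coloured and named and the list median as a black bar. The medians of the TGF-beta and BMP response lists lie at -0.14 and -0.10, and ITGB6 stands furthest to the right at 6.77.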

How the data were processed

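RNA was measured in 10 adipose libraries, 5 per depot. The submitters' processing notes name STAR 2.7.11a, Trimmomatic 0.39, DESeq2 1.42.0 and featureCounts 2.0.2. Genome build and strand setting are not stated in these sources, and coordinates are those of the deposited table. The authors deposited raw counts per gene. The deposited table also holds the authors' mean counts, a mean signal over size-factor-scaled libraries, a log2 fold change with its error, a Wald score, and p-values raw and adjusted. CPM and RPKM were computed here from the deposited counts, edgeR's scaled library sizes and the deposited gene length.

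Depots were compared by quasi-likelihood F tests in edgeR 4.0.16 under R 4.3.3 (two-sided, no block, libraries scaled by TMM and low genes removed by filterByExpr) on all 12521 genes kept of 12674, with Benjamini-Hochberg adjustment at 0.05. SE is the log2 fold change divided by the root of its F statistic. In simulated counts 197 of 12387 genes were changed, and no animal effect was given. The test called 41.4% of genes given a 2-fold and 82.7% given a 4-fold change, while 6.15% of its calls fell on unchanged genes. Such rates vary with the share of genes changed. In the real counts 12.2% of genes were called, so the simulated rates need not hold there. Alternatives were DESeq2, limma 3.58.1 (voom), other scalings, no filter, a muscle covariate, a replicate block and left-out libraries.

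Libraries of equal number count as pairs, since the labels name 5 heifers for both depots. Same-numbered libraries' deviations correlated across genes at 0.102, 0.181, 0.176, 0.161 and 0.237. For 10 of 10 libraries the highest such correlation with the other depot was with the library of the same number. Members and gene lists were chosen with earlier results of these data known. Called members are given in full, with the highest member per kilobase in each role; the closest misses, and up to 3 called genes per list and direction, follow, and others named were chosen after their values were seen.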

Additional observations from a re-analysis of the deposited data

Results flagged for a closer look

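The 5 values of each depot were checked for a library set apart from the rest, by the gap to its nearest neighbour over the whole range, in 150 groups of values. There were 17 such values. Chance alone marks about 5% of groups only where values are normally distributed, which was not checked for these CPM values. Where 4 libraries are at 0, as for MSTN and ITGB6 in subcutaneous fat, any count in the remaining library is marked. Some genes were also chosen after their values were seen, so the number cannot be set against that rate. Subcutaneous replicate 1 was the highest library apart for LTBP1 (162 CPM, others 35.7 to 57.4), ACVR1 (41.9, others 25.9 to 30.4), ID4 (58.5, others 15.7 to 27.9), NEDD4L (26.1, others 15.0 to 15.9) and MSTN (0.323, others 0). Subcutaneous replicate 4 was the highest apart for BMPER (19.5 CPM, others 1.16 to 2.35), NOG (7.11, others 1.06 to 1.61) and ITGB6 (0.352, others 0), and subcutaneous replicate 2 for SMAD9 (1.91, others 0 to 0.372). Subcutaneous replicate 5 was the lowest apart for FSTL3 (26.1 CPM, others 30.7 to 32.2), SMURF2 (6.06, others 14.2 to 16.6) and TGFBRAP1 (19.7, others 31.4 to 34.9).

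In intramuscular fat, replicate 1 was the highest apart for MSTN (5.34 CPM, others 0.661 to 1.10) and INHA (6.74, others up to 2.86), replicate 2 for INHBA (58.1, others 23.5 to 30.5) and GREM1 (4.18, others 0.936 to 1.56), and replicate 3 for TGFBRAP1 (44.3, others 34.9 to 37.1). The cause of these values was not tested.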

How the results depend on the processing

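With edgeR, 10 of the 57 pathway genes passed as higher and 1 as lower. Of all tested genes 12.2% were called with edgeR (845 higher and 688 lower) and 20% with DESeq2 (1369 and 1171). The share was 12.1% with limma voom, 12% with RLE and 11.7% with upper quartile scaling, 12.4% with no filter and 15% with the replicate block. With 1 library left out it was 6.02 to 15%, and without intramuscular replicates 1 and 3 it was 2.96%. Among the 57 the higher count was 13 with DESeq2 and limma voom and 14 with the replicate block. It was 11 with RLE scaling and 10 with upper quartile scaling or no filter. It was 4 without intramuscular replicates 1 and 3, where INHBA, TGFB3, GDF11 and FSTL3 kept their calls, and 5 to 13 with 1 library left out. The lower count was 2 with DESeq2, 0 without intramuscular replicates 1 and 3, and 0 to 1 with 1 library left out. For the 5 other lists, 16 higher and 2 lower became 5 and 1 without intramuscular replicates 1 and 3; the lower count was 9 with DESeq2 and 1 with RLE or upper quartile scaling, and with 1 library left out the counts ran from 8 to 18 and 1 to 4. The replicate block gave 19 higher and 2 lower there, and of the 18 genes called there without the block it lost 1, TAB1.

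With the striated muscle markers as a covariate all 4 counts were 0, and 0 of 12521 genes in the table were called. The depots held 94.3% of the variance of that covariate, which inflates the variance of the depot term 17.5-fold, so this fit cannot separate them. In it the log2 fold change changed sign for 28 of the 57 pathway genes and 49 of the 117 other genes; these include ACVR1 (-0.51), BMP4 (1.06), BMPR1A (-0.091), MSTN (-2.89), CHRDL1 (1.67), INHBB (0.52), CHRD (-2.07), SMAD2 (0.22), TGFB1 (-0.25), TGFB1I1 (-0.66), KLF10 (-0.46), PPARGC1A (-0.81), BGN (-1.40), NEDD4L (-1.49), PPM1A (-0.76), ERBIN (-0.30) and ZEB1 (-1.14). Of the 11 called pathway genes, 7 kept their sign and lost their call: ACVRL1, INHBA, GDF11, TGFB3, FSTL3, SMAD4 and TGFB2. Among them INHBA and TGFB3 had 4.66 and 2.43, values that this fit cannot assign to depot or to muscle. SMAD2 also changed sign with DESeq2 (0.0097), RLE (0.0093) and upper quartile scaling (0.017), and INHBB without intramuscular replicates 1 and 3 (0.22). With 1 library left out the log2 fold change ran from -0.037 to 0.034 for SMAD2, -0.12 to 0.19 for TGFB1, -0.28 to 0.23 for INHBB and -0.32 to 0.081 for LTBP4. The call held in all 10 such fits for 4 of the 11 called pathway genes, and the cause was not tested. P-values of the main fit, which has no block, measure the spread between the 5 libraries within each depot. They do not measure the spread of the depot difference between animals, and only the fit with the replicate block uses the pairing. Counts under about 10 per library, as for MSTN, limit precision.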
